A study of Mus musculus with 12 samples.

Results

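Transcripts of the proteins that fuse vesicles with membranes, and of the proteins that sit on synaptic vesicles, were followed in dorsal root ganglia of mice. The genes were taken by name from the deposited table of counts: every protein-coding gene of the synaptotagmin (Syt), Vamp, syntaxin (Stx), syntaxin-binding (Stxbp), complexin (Cplx), synapsin (Syn1 to Syn3), Sv2, Rab3 and synaptogyrin (Syngr) families, with Snap23, Snap25, Snap29 and Snap47. This gave 69 of 54532 genes. The rule used names and biotype only, but it was set with earlier results of these data known. The ganglia (DRGs), where the somata of trunk and limb sensory neurons lie, came from C57BL/6 mice that had all received D-Alanine. The 6 Control libraries carried the genotype CDH5-Cre, in which the promoter of vascular endothelial cadherin drives a recombinase. The 6 DAAO libraries carried the genotype DAAO-TGCdh5, a transgene for D-amino acid oxidase, an enzyme that makes hydrogen peroxide from D-alanine. The Cdh5 promoter is an endothelial one, while most of the genes described here are known from neurons. Cre is named in the titles of the DAAO libraries but not in their genotype, and a Cre difference and the transgene cannot be told apart. Age and sex are not given in the labels used here. The labels do not say that libraries came from separate animals, and p-values then reflect only how these samples spread, which may be technical.

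A vesicle fuses when a SNARE protein on the vesicle (a Vamp) zips together with SNARE proteins of the target membrane (a syntaxin and a Snap25-type protein). Munc18 proteins hold syntaxin ready, complexins hold the partly zipped complex, and synaptotagmins bind calcium and set off the final step. Synapsins tether vesicles in reserve, Rab3 GTPases bring them to the release site, and SV2 proteins and synaptogyrins span the vesicle membrane. In a sensory ganglion most of this machinery is transcribed in cell bodies whose release sites lie far away, in the spinal cord and in the periphery. Somata can also release transmitter and peptides within the ganglion. Several of the families have a neuronal pair of paralogs, and others a neuronal and a widely expressed member.

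Library totals ran from 13227518 to 23884927 counts, and 17002 genes had enough counts to be tested. Values are TMM-normalised read counts (CPM, per library size times its TMM factor), and log2 fold changes are DAAO minus Control from edgeR's quasi-likelihood test, with p-values adjusted over all 17002 genes. Control 2 and Control 6 stood apart with 7.44% and 7.65% of counts in mitochondrial genes, against 3.32% to 5.13% in the other 10 libraries. Control 2 also held the most myelinating Schwann cell and oligodendrocyte transcripts, so calls are given with and without these libraries. Of the 10 myelinating Schwann cell markers 9 were negative, with a median log2 fold change of -0.49, 6 lower at an unadjusted p under 0.05 and none called. Their sum was 6789 to 25403 CPM in Control and 7257 to 8951 CPM in DAAO. The 17 pan-neuronal markers summed to 12941 to 20589 CPM in Control and 10719 to 18185 CPM in DAAO, and none passed the test (median log2 fold change -0.19). Of these 17 markers 13 were negative and 4 positive. At an unadjusted p under 0.05 in edgeR, 4 of the 17 were lower (Nefh, Map2, Elavl2 and Nefl), beside 4.87% of all genes, and none was higher. Of 9 markers of proprioceptors and other large sensory neurons 4 were called lower (Esrrg, Runx3, Etv1 and Whrn), and their summed level was 632 to 1217 CPM in Control and 451 to 644 CPM in DAAO. In bulk tissue fewer cells of a type and less RNA per cell cannot be told apart. For the 10 macrophage markers, of which 1 was called higher (Lyz2), the median log2 fold change was 1.06, and their sum was 86.9 to 525 CPM in Control and 403 to 1935 CPM in DAAO. Skeletal muscle and oligodendrocyte or astrocyte transcripts varied widely within both groups, the former from 13.1 to 2867 CPM in Control and from 10.2 to 477 CPM in DAAO. All 10 tested muscle markers were negative (median log2 fold change -2.19), as were 9 of 10 oligodendrocyte or astrocyte markers (median -0.51). None of these markers was called.

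The 69 genes took 1.09% ± 0.148 (SD, n = 6) of all counts in Control and 1.01% ± 0.0688 (SD, n = 6) in DAAO, with overlapping ranges of 0.846% to 1.29% and 0.911% to 1.10%. Per kilobase of the deposited gene length, averaged over the 12 libraries, high levels were those of Cplx1 (269 CPM per kb, the highest), Syt11 (198), Rab3a (190), Snap25 (156), Vamp2 (123) and Syn1 (117). These are a neuronal complexin, an unusual synaptotagmin that does not bind calcium, the main Rab3 of neurons, the neuronal target-membrane SNARE, the main vesicle SNARE of brain, and a synapsin. Within families the levels per kilobase were unequal: Vamp2 at 123 stood above Vamp1 at 34.6, Snap25 at 156 and Snap47 at 65.6 stood far above Snap23 at 3.85, and Cplx1 at 269 stood above Cplx2 at 60.7. Snap23 is the widely expressed form of this SNARE. Before division by length Vamp1 and Vamp2 were close in Control, at means of 424 and 442 CPM. Their deposited lengths are 10167 and 3809 bases, so that rankings per kilobase depend on the length used.

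**Figure D1:**
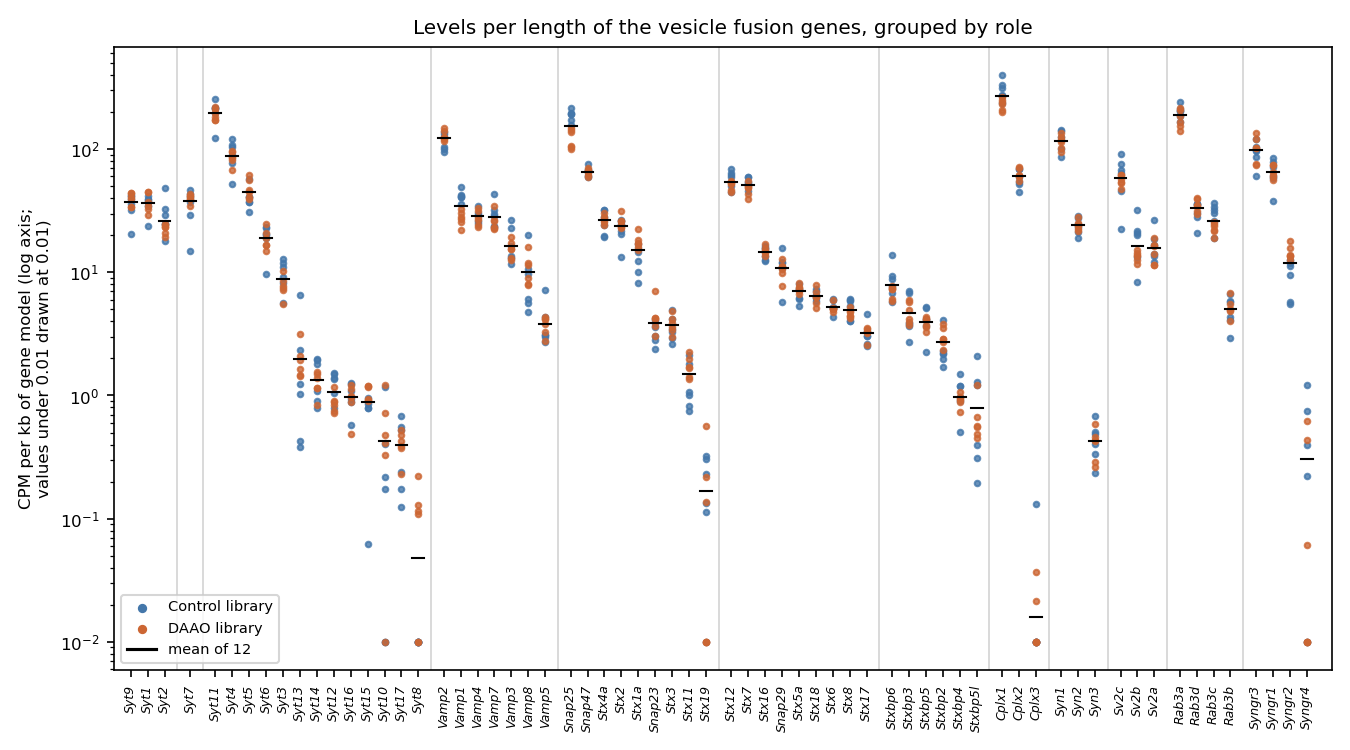
Levels of the members of the vesicle fusion families, in CPM per kilobase of gene length on a log axis, grouped by role, with 1 point per library and a line at the mean of 12. Not every member is drawn. Cplx1 was highest at 269 CPM per kb, and Syt11, Rab3a, Snap25, Vamp2 and Syn1 lay at 117 to 198.

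Because paralogs carry most of what follows, the stretches where they are most alike are printed first, to show how far their reads can be told apart. Sequences are coding stretches of 150 bases, the length of 1 read, from GENCODE M21 transcripts on GRCm38, written 5′ to 3′ with the bases that differ between the pair in capitals. The vesicle SNAREs Vamp1 (transcript Vamp1-202, coding bases 64 to 213) and Vamp2 (Vamp2-202, coding bases 58 to 207) differed at 21 of 150 bases in their most similar stretch:
Vamp1: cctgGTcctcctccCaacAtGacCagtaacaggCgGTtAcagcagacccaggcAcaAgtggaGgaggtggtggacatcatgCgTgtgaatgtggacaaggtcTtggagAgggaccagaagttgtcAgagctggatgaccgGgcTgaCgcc
Vamp2: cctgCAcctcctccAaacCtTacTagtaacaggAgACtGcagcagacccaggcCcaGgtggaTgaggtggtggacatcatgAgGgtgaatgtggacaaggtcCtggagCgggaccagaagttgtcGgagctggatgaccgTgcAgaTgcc
The neuronal target-membrane SNARE Snap25 (Snap25-201, coding bases 65 to 214) and its widely expressed paralog Snap23 (Snap23-203, coding bases 50 to 199) differed at 39 bases in theirs:
Snap25: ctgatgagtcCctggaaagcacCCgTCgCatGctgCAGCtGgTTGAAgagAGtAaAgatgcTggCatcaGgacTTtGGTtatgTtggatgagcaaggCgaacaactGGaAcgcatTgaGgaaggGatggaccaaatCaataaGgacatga
Snap23: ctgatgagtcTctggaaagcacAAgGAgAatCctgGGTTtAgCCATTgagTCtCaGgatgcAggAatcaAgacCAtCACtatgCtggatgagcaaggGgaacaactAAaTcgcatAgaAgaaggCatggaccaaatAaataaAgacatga
The neuronal complexins Cplx1 and Cplx2 (Cplx1-201 and Cplx2-201, coding bases 1 to 150 of each) differed at 23 bases:
Cplx1: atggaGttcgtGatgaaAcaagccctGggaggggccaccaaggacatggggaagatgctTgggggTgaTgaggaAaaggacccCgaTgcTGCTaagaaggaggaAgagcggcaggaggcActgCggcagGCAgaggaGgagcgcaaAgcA
Cplx2: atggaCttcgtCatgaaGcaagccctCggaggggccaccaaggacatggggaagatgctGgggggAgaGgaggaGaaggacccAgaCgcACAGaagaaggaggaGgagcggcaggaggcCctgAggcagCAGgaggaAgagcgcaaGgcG
Over the whole aligned coding sequence the identity was 70.6% for Vamp1 and Vamp2, 68.0% for Snap25 and Snap23, and 79.6% for Cplx1 and Cplx2. The longest run of identical bases shared by any transcripts of a pair was 18, 25 and 32 bases in the same order. No read of 150 bases can therefore match both genes of one of these pairs without mismatches.

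Of the 69 genes 63 had enough counts to be tested, and 2 passed at an adjusted p of 0.05, both lower in DAAO: Snap25 and Vamp1. That is 3.17% of those tested, against 0.753% of all genes tested that were called, 0.247% lower and 0.506% higher. At an unadjusted p under 0.05 there were 10 members, 8 lower (among them Snap25, Vamp1, Cplx1, Rab3c, Syt12, Sv2b and Syt2) and 2 higher (Syngr2 and Stx1a). The 8 lower ones were 12.7% of those tested, beside 4.87% of all genes, and the 2 higher ones were 3.17%, beside 5.44%. The median log2 fold change of the tested members was -0.04, with 37 of 63 negative (58.7%), beside a median of 0.0021 and 49.6% negative over all genes. Most members thus lay close to 0, with a few lower ones. Control and DAAO libraries did not overlap at all for 3 members, Snap25 and Vamp1 lower and Syngr2 higher, or 4.76% of those tested, beside 1.45% of all genes (0.529% lower and 0.918% higher). Without Control 2 alone 4 of 63 were called lower (6.35%, beside 0.68% of 17362 genes): Rab3c, Snap25, Sv2b and Vamp1. Without Control 2 and Control 6 together the members called lower were 7 of 64 (10.9%, beside 1.78% of 17834 genes), among them Cplx1, Rab3c, Snap25, Sv2b, Syt2 and Vamp1. Control 2 and Control 6 also had the lowest mean levels of the tested members among all libraries (log2 deviations of -0.19 and -0.13). Leaving them out raises the Control level, so that more lower calls are partly built in.

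**Figure D2:**
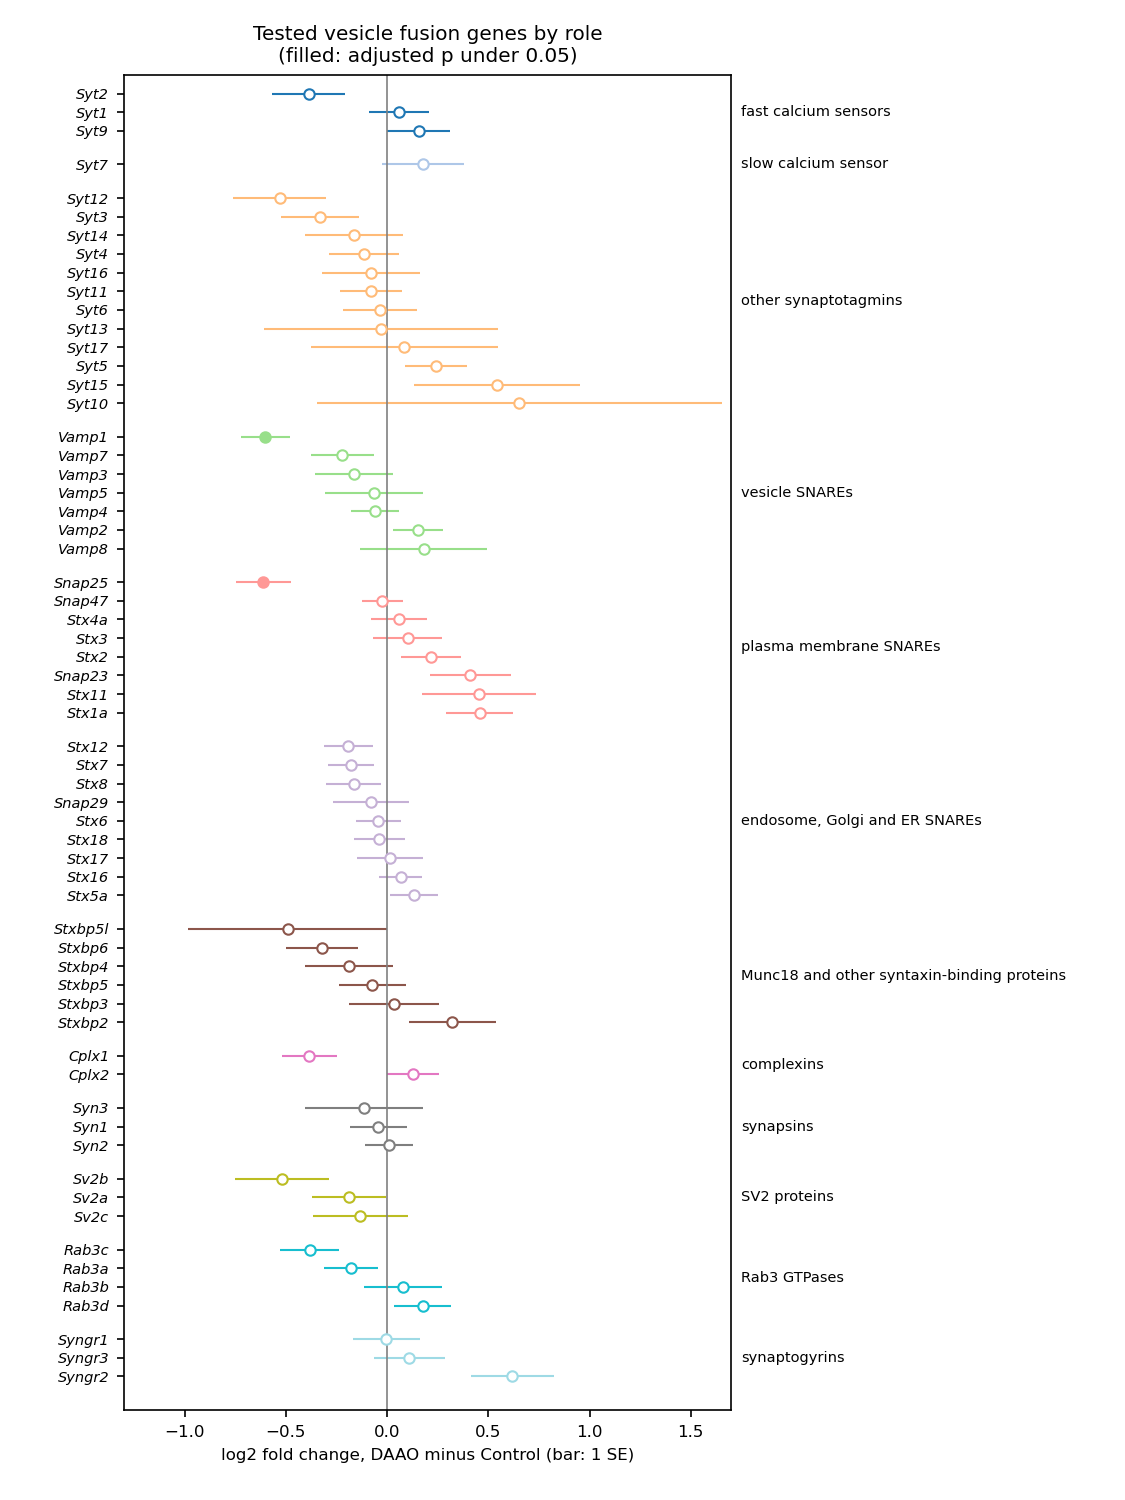
Log2 fold changes, DAAO minus Control, of tested members grouped by role, with bars of 1 SE and filled points for an adjusted p under 0.05. Snap25 at -0.61 and Vamp1 at -0.60 were the filled points, and Syngr2 at 0.62 and Syt10 at 0.65 lay farthest to the right.

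Among the vesicle SNAREs, Vamp1 fell while its close paralog Vamp2 did not pass the test. Vamp1 (ENSMUSG00000030337, chromosome 6, 125215551 to 125245964, GRCm38) is a vesicle SNARE known from spinal cord, motor and fast-conducting neurons. In Control it ranged from 367 CPM over a median of 417 to 503, and in DAAO from 224 over 280 to 330. All 6 DAAO libraries lay below all 6 Control libraries. Its mean went from 424 ± 44.2 to 280 ± 36.7 CPM (SD, n = 6 each), 66.0% of Control, a log2 fold change of -0.60 ± 0.12 (SE; edgeR adjusted p = 0.0231). This call was lost when Control 1, Control 3, Control 4, DAAO 2, DAAO 3, DAAO 4 or DAAO 6 was left out, with adjusted p up to 0.0928 and log2 fold changes from -0.66 to -0.54 over all 12 omissions. It held at -0.53 with the pan-neuronal level of each library as a covariate (adjusted p = 0.0343). The part of the lower proprioceptor markers in this value was not tested. Vamp1 overlaps Tapbpl on the chromosome, a gene with 4659 counts over the 12 libraries against 78431 for Vamp1. Vamp2 (ENSMUSG00000020894, chromosome 11), the main vesicle SNARE of fast transmitter release, ranged from 364 to 525 CPM in Control and from 441 to 566 CPM in DAAO. The groups overlapped, and its log2 fold change was 0.15 ± 0.12 (95% interval -0.09 to 0.40; adjusted p = 0.755). Of the 7 vesicle SNAREs tested, 5 had negative and 2 positive fold changes, with a median of -0.07.

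Among the SNAREs of the plasma membrane, Snap25 fell and no other member passed the test. Snap25 (ENSMUSG00000027273, chromosome 2, 136713453 to 136782428) is the neuronal target-membrane SNARE that pairs with syntaxin. It ranged from 1070 CPM over a median of 1308 to 1467 in Control, and from 679 over 827 to 1009 in DAAO. Every DAAO library was below every Control library. The mean went from 1276 ± 138 to 836 ± 148 CPM (SD, n = 6 each), 65.5% of Control, a log2 fold change of -0.61 ± 0.14 (SE; edgeR adjusted p = 0.0498). The call sits at the threshold: it held when Control 2 or DAAO 4 was left out and was lost in the other 10 omissions, with adjusted p up to 0.166 and fold changes from -0.67 to -0.56. With the pan-neuronal covariate it was -0.53 (adjusted p = 0.0601). Snap23 (chromosome 2), which does the same work in most other cells, ranged from 10.3 to 17.5 CPM in Control and from 13.0 to 30.4 CPM in DAAO. It had a log2 fold change of 0.41 ± 0.20 (adjusted p = 0.506), and DAAO 3, its highest library, also had the highest macrophage marker level of the 12. The part of macrophage transcripts in Snap23 was not tested. Snap47, a Snap25 relative that overlaps the less abundant Jmjd4 on the opposite strand, was at 175 ± 16.0 and 172 ± 10.6 CPM (-0.02, 95% interval -0.22 to 0.17; adjusted p = 0.976).

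**Figure D3:**
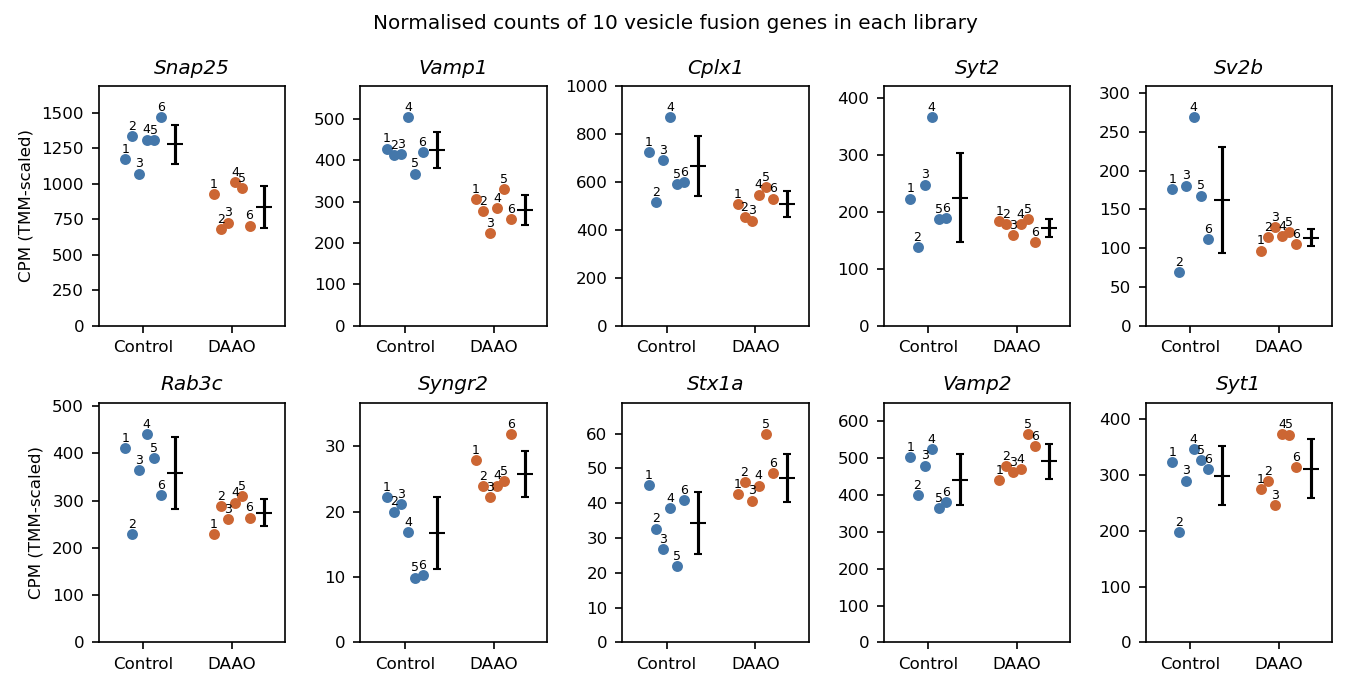
CPM of 10 members in each of the 12 libraries, Control and DAAO side by side, with 1 numbered point per library and the group mean ± SD. For Snap25 and Vamp1 the 6 DAAO points all lay under the 6 Control points, and for Vamp2 the groups overlapped.

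Stx1a, a syntaxin of neuronal release sites, ranged from 21.9 CPM over 35.7 to 45.3 in Control and from 40.8 over 45.5 to 60.0 in DAAO. The ranges overlapped, with means of 34.4 ± 8.89 and 47.2 ± 6.83 CPM (log2 fold change 0.46 ± 0.17; adjusted p = 0.318). The 9 tested of 10 plasma membrane SNAREs had a median log2 fold change of 0.10, 6 of them positive.

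The balance within paralog pairs was measured inside each library, as the log2 ratio of the counts of one gene to those of the other, which does not depend on how libraries are scaled. The p-values were adjusted over 8 pairs, of which 7 are given here. The pairs were chosen with the falls of Snap25 and Vamp1 known, so that their ratios are not independent of those calls. Of the 7, 3 passed at an adjusted p of 0.05, by an exact two-sided permutation test over all 924 splits. The log2 ratio of Vamp1 to Vamp2 was -0.05 ± 0.15 in Control and -0.82 ± 0.20 in DAAO (SD, n = 6 each). It ran from -0.24 to 0.14 in Control and from -1.05 to -0.53 in DAAO, with no overlap. The difference was -0.77 ± 0.10 (SE; exact permutation p = 0.00216, the smallest these splits can give; adjusted p = 0.0173), from 0.965 to 0.567 counts of Vamp1 per count of Vamp2. It stayed between -0.83 and -0.72 and passed whichever of the 12 libraries was left out.

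The log2 ratio of Snap25 to Snap23 was 6.50 ± 0.35 in Control and 5.50 ± 0.60 in DAAO, and the ranges of 6.00 to 6.98 and 4.58 to 6.27 overlapped. The difference was -1.01 ± 0.28 (exact permutation p = 0.00649, two-sided; adjusted p = 0.0173), from 90.8 to 45.2 counts of Snap25 per count of Snap23. The lowest DAAO library was DAAO 3, the library highest in Snap23. The difference passed whichever library was left out, at -1.16 to -0.82. For Cplx1 and Cplx2 the log2 ratio was 1.22 ± 0.22 in Control and 0.71 ± 0.15 in DAAO, a difference of -0.51 ± 0.11 (exact permutation p = 0.00649, two-sided; adjusted p = 0.0173) that also passed in all 12 omissions. Each of these is a change of balance and does not say which gene moved.

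**Figure D4:**
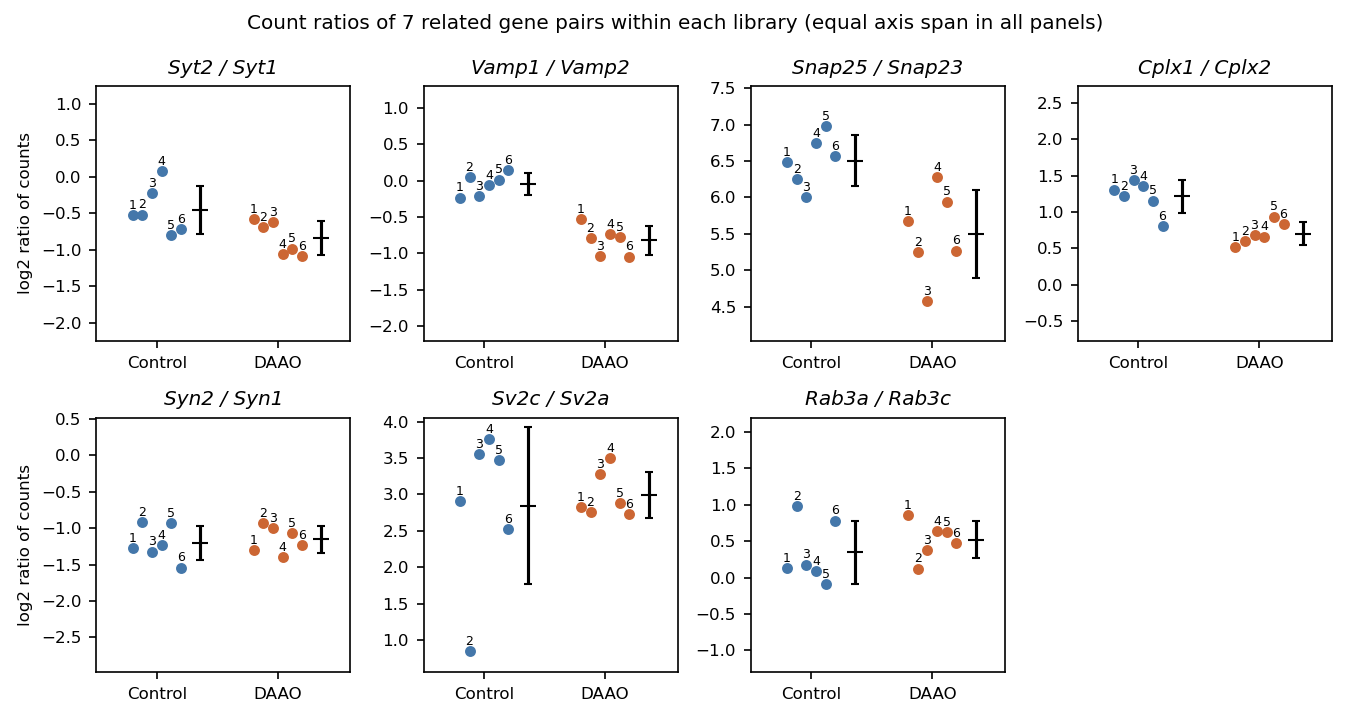
Log2 ratio of counts within 7 paralog pairs in each library, Control and DAAO, with 1 numbered point per library and the group mean ± SD. The ratio of Vamp1 to Vamp2 separates the groups with no overlap, at -0.24 to 0.14 in Control and -1.05 to -0.53 in DAAO.

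The other 4 pairs did not pass with all 12 libraries. The log2 ratio of Syt2 to Syt1 was -0.45 ± 0.33 in Control and -0.84 ± 0.23 in DAAO, a difference of -0.39 ± 0.16 (exact permutation p = 0.0433, two-sided; adjusted p = 0.0693). This passed without Control 5 (-0.46; adjusted p = 0.0476, exact permutation). Rab3a to Rab3c differed by 0.17 ± 0.20 (adjusted p = 0.540, exact permutation), Syn2 to Syn1 by 0.05 ± 0.12 (adjusted p = 0.782) and Sv2c to Sv2a by 0.15 ± 0.46 (adjusted p = 0.840). Without Control 2 and Control 6 the ratio of Rab3a to Rab3c differed by 0.44 and passed (adjusted p = 0.0381, exact permutation). The ratio of Sv2c to Sv2a turned to -0.43 without Control 2 and Control 6, the lowest Control libraries for Sv2c.

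Of the calcium sensors of fast release, Syt2 is the fastest and is known from fast-spiking and large neurons. Syt2 ranged from 138 CPM over 206 to 366 in Control and from 147 over 179 to 188 in DAAO. The DAAO libraries lay close together, within the wider range of Control. Its mean went from 225 ± 78.4 to 172 ± 15.8 CPM, and its log2 fold change of -0.39 ± 0.18 had an unadjusted p of 0.0477 (edgeR adjusted p = 0.478). Syt2 overlaps Ppp1r12b on the chromosome, so that its counts are uncertain. Syt1, the common sensor of fast release, was at 298 ± 52.8 and 311 ± 52.5 CPM (0.06, 95% interval -0.23 to 0.35; adjusted p = 0.955). Syt9 was at 141 ± 32.9 and 157 ± 17.8 CPM (0.16; adjusted p = 0.826), and Syt7, the slow sensor of asynchronous and peptide release, at 257 ± 84.9 and 291 ± 22.02 CPM (0.18; adjusted p = 0.863). Control 2 was the lowest library for all 4 sensors. For Syt2, Syt7 and Syt9 the Control libraries spread more widely than the DAAO libraries.

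The other synaptotagmins include forms that do not sense calcium. Syt11 was the most abundant of them at 1057 ± 226 CPM in Control and 1002 ± 103 CPM in DAAO (-0.08, 95% interval -0.38 to 0.22; adjusted p = 0.936). Syt4, which lacks calcium binding in its first C2 domain and is found on peptide vesicles, was at 360 ± 98.0 and 332 ± 41.6 CPM (-0.11; adjusted p = 0.905). Syt12 was low, at 7.02 ± 1.58 CPM in Control and 4.87 ± 0.886 CPM in DAAO (-0.53 ± 0.23; adjusted p = 0.439), and the groups overlapped. Of the 12 tested of 13 in this group, 8 were negative, and the median was -0.06.

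Complexins grip the assembled SNARE complex. Cplx1 was the most abundant member per kilobase, and ranged from 516 CPM over 646 to 870 in Control and from 439 over 520 to 580 in DAAO. The groups overlapped, because Control 2 at 516 lay within the range of DAAO. Its mean was 666 ± 125 CPM in Control and 510 ± 54.4 CPM in DAAO. The log2 fold change of -0.38 ± 0.14 (95% interval -0.65 to -0.12) had an unadjusted p of 0.0117 and did not pass over all genes (edgeR adjusted p = 0.292). Without Control 2 and Control 6 together it passed (adjusted p = 0.0373). Cplx2 was at 286 ± 48.3 and 313 ± 31.1 CPM (0.13, 95% interval -0.12 to 0.38; adjusted p = 0.827).

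The SV2 proteins, transporter-like glycoproteins of the vesicle membrane, were all negative with a median log2 fold change of -0.19, and none was called. Sv2b ranged from 69.4 CPM over 172 to 269 in Control and from 97.1 over 115 to 127 in DAAO. The lowest Control library, Control 2, was below all DAAO libraries, and the mean went from 162 ± 67.9 to 113 ± 10.8 CPM (-0.52 ± 0.23; adjusted p = 0.461). Without Control 2 alone it passed (adjusted p = 0.0425), and without both Control 2 and Control 6 it did so at 0.00369. Sv2c, the form most abundant here, was at 593 ± 232 and 541 ± 53.7 CPM (-0.13; adjusted p = 0.927), and Sv2a, the most widespread form in the brain, at 78.4 ± 24.2 and 68.8 ± 13.8 CPM (-0.19; adjusted p = 0.821).

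Of the Rab3 GTPases, which carry vesicles to the release site, Rab3c ranged from 230 CPM over 377 to 441 in Control and from 230 over 276 to 310 in DAAO. Control 2, at 230, was the only Control library below the DAAO median. Its mean went from 358 ± 76.7 to 275 ± 28.9 CPM (-0.38 ± 0.15; unadjusted p = 0.0186, edgeR adjusted p = 0.354), and it passed without Control 2 (adjusted p = 0.0355). Rab3a, which overlaps the less abundant Mpv17l2 on the opposite strand, was at 448 ± 57.2 and 396 ± 66.7 CPM (-0.18, 95% interval -0.44 to 0.08; adjusted p = 0.723), and Rab3d, known from secretory cells, at 131 ± 25.7 and 148 ± 17.6 CPM (0.18; adjusted p = 0.747).

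No synapsin or synaptogyrin passed the test. Syngr1 overlaps Rpl3 on the opposite strand (70365 and 125341 counts over the 12 libraries) and Syn1 overlaps Araf (86076 and 37513 counts), so that both are uncertain. Syn1 was at 392 ± 73.5 and 381 ± 50.5 CPM (-0.04, 95% interval -0.32 to 0.23; adjusted p = 0.965), and Syn2 at 169 ± 25.3 and 170 ± 16.4 CPM (0.01, 95% interval -0.22 to 0.24; adjusted p = 0.995). Syngr1 was at 315 ± 81.5 and 314 ± 37.2 CPM (-0.0045, 95% interval -0.33 to 0.32; adjusted p = 0.998), and Syngr3 at 196 ± 41.3 and 212 ± 50.7 CPM (0.11; adjusted p = 0.909). Syngr2 is the synaptogyrin known from cells outside the nervous system. It ranged from 9.90 CPM over 18.4 to 22.2 in Control and from 22.3 over 24.3 to 31.9 in DAAO. No library of one group lay within the range of the other, although the gap was narrow, and the log2 fold change was 0.62 ± 0.20 (unadjusted p = 0.00734, edgeR adjusted p = 0.231). The part of macrophage transcripts in this value was not tested.

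The Munc18 proteins and other syntaxin-binding proteins had a median log2 fold change of -0.15 over 7 genes, none called. Stxbp6 (amisyn), a competitor for the SNARE complex, was at 30.4 to 73.2 and 30.9 to 41.4 CPM (-0.32; adjusted p = 0.576). SNAREs of endosomes, the Golgi and the endoplasmic reticulum spread little: over 9 genes log2 fold changes ran from -0.19 to 0.14, with a median of -0.04. Stx12 and Stx7, syntaxins of endosomes, were at 186 ± 28.7 and 163 ± 13.9 CPM (-0.19; adjusted p = 0.639) and at 241 ± 23.4 and 213 ± 24.4 CPM (-0.18; adjusted p = 0.639).

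The 37 members outside the naming rule were those left after the members with a small p had been named. Of these 32 were tested, with log2 fold changes from -0.49 (Stxbp5l) to 0.65 (Syt10). Too low to test were 6 of the 69. Cplx3 had 7 counts in Control and 3 in DAAO over all libraries. Cplx4 had 0 in each, which allows up to 0.0135 CPM over the 12 libraries. Syt8 had 0 counts in Control, which allows up to 0.0268 CPM over the group, and 22 in DAAO. These limits cover counting error only. Stx19 had 59 and 44, Syngr4 49 and 20, and Vamp9 33 and 9.

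The other genes of the release cycle were read from the same fit: 70 genes of priming and the active zone, SNARE disassembly, vesicle loading and endocytosis, of which 68 were tested. None was called higher and 1 lower, Sh3gl2, endophilin A1, which bends membrane for vesicle endocytosis. Sh3gl2 (chromosome 4, 85205126 to 85639195) ranged from 91.7 CPM over 115 to 127 in Control and from 60.1 over 67.5 to 84.3 in DAAO. The groups did not overlap, its mean went from 111 ± 13.7 to 69.4 ± 9.15 CPM, and it fell by 0.68 ± 0.12 on the log2 scale (edgeR adjusted p = 0.00873) and passed whichever library was left out. That is 1.47% of those tested, beside 0.247% of all genes. At an unadjusted p under 0.05 there were 10 of 68 (14.7%, beside 10.3% of all genes). Of these 9 were lower and 1 was higher (Slc17a8), beside 4.87% of all genes lower and 5.44% higher. In all, 50 of 68 were negative (73.5%, beside 49.6%), with a median log2 fold change of -0.11. The 9 genes of SNARE disassembly and chaperoning were all negative, from -0.43 to -0.0037 with a median of -0.22. None of the 9 was called, and 2 were lower at an unadjusted p under 0.05 in edgeR, beside 4.87% of all genes. The median of the 17 pan-neuronal markers was -0.19. The vesicular glutamate transporters load glutamate into vesicles. Slc17a7 was at 94.3 ± 46.3 CPM in Control and 49.0 ± 12.6 CPM in DAAO, and its log2 fold change of -0.94 ± 0.32 missed the threshold (adjusted p = 0.277). Slc17a7 was called lower without Control 2 (-1.13; adjusted p = 0.0153) and without Control 2 and Control 6 together (-1.21; 0.0213). It was also called with the oligodendrocyte level as a covariate (-0.73; 0.0484) and with DESeq2 (-0.96; 0.0408). The other 11 omissions of 1 library gave no call (weakest -0.68, edgeR adjusted p up to 0.537). Nor did other scalings, limma-voom, no filter, the replicate block or the pan-neuronal covariate. Control 2, at 28.4 CPM, was below all DAAO libraries, so that leaving it out raises the Control level of Slc17a7. Slc17a6 was at 272 ± 50.4 and 222 ± 24.3 CPM (-0.29 ± 0.13; adjusted p = 0.464). Slc17a8, the third of these transporters, went the other way, at 20.8 ± 6.46 and 30.1 ± 4.76 CPM (0.54 ± 0.19; unadjusted p = 0.0121, edgeR adjusted p = 0.297). It lies outside the naming rule and was chosen after its values were seen. Syp, synaptophysin of the vesicle membrane, was at 366 ± 88.6 and 329 ± 72.0 CPM (-0.15; adjusted p = 0.854).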

How the data were processed

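RNA from 12 dorsal root ganglion libraries was counted by the authors, who deposited a table of whole-number read counts per gene, not normalised. The submitters' processing notes name HISAT2 2.0.5, FastQC, DESeq2 1.20.0 and GRCm38/mm10. For the counting program, its strand option and its annotation, the sources used here give nothing. If strand was not used, reads from overlapping stretches cannot be told apart by gene, and how they were counted is not known. The larger overlaps of named members are given beside their values.

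Genes were kept with edgeR's filterByExpr (minimum count 10, minimum total 15), and scaled with TMM. The two-sided robust quasi-likelihood test of edgeR 4.0.16 (R 4.3.3) compared 6 DAAO with 6 Control libraries, with Benjamini-Hochberg adjustment over 17002 genes. The SE was taken from the size of the log2 fold change and F, and 95% intervals are normal. Paralog ratios used a pseudocount of 0.5 and exact permutation tests. The test was tested on simulated data. All 66 pairs of the 12 libraries were compared, and none was identical.

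Members with an adjusted or unadjusted p under 0.05, the 2 highest per kilobase of each role and both genes of each pair were named. Members and lists were chosen with earlier results of these data known. A few members and 1 pair were analysed with the rest and are not reported here. Coding sequences came from GENCODE M21.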

Additional observations from a re-analysis of the deposited data

Results flagged for a closer look

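In groups of 6 libraries, a library was singled out when its gap to its nearest neighbour exceeded 0.625 of the group's range. This was asked of 82 groups of values, which did not take in every member. Chance gives about 1 in 20 of these, and 1 was found. Snap23 in DAAO 3 was 30.4 CPM, with the next highest DAAO library at 18.3 CPM. Gaps of this size also occurred among members outside the naming rule. Examples in Control 2 were Syt15 (0.324 CPM, next 4.08), Syt13 (24.6, next 8.76) and Vamp5 (19.6, next 11.8). Others were Stxbp2 in Control 6 (17.1 CPM, next 9.54) and Stxbp5l in DAAO 2 (10.3, next 5.66).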

How the results depend on the processing

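The alternatives were other scalings (RLE, upper quartile), DESeq2 1.42.0, limma-voom 3.58.1, no filter, the replicate number as a block, pan-neuronal or oligodendrocyte levels as a covariate, and libraries left out. Over all genes 86 were higher and 42 lower, against 217 and 145 with DESeq2, 156 and 69 with the oligodendrocyte term, and 330 and 318 without Control 2 and 6. Between libraries that share a replicate number, correlations of deviations ran from -0.081 to 0.215. Of the 6 Control libraries 3 correlated best with their own number, so that a pairing by number is not settled. With the replicate block 144 genes were higher, 1 member was lower (Vamp1), and the ratios were -0.77 and -1.01 for Vamp1/Vamp2 and Snap25/Snap23 (adjusted p = 0.0625 each, exact sign flips, whose smallest p is 0.03125) and -0.51 for Cplx1/Cplx2 (adjusted p = 0.100). Members lower numbered 1 with the pan-neuronal term and 7 without Control 2 and 6, and release cycle genes lower numbered 2 with DESeq2 or the oligodendrocyte term and 7 without Control 2 and 6. Without Control 2 and 6 Rab3a/Rab3c was 0.44 and passed, and Sv2c/Sv2a turned to -0.43. Leaving out each library in turn gave 47 to 204 genes higher and 14 to 118 lower, 0 to 4 members lower (4 without Control 2), and 1 to 3 release cycle genes lower. The ratios then ran from -0.83 to -0.72 (Vamp1/Vamp2), -1.16 to -0.82 (Snap25/Snap23), -0.59 to -0.46 (Cplx1/Cplx2), -0.46 to -0.28 (Syt2/Syt1), -0.25 to 0.33 (Sv2c/Sv2a) and -0.0172 to 0.107 (Syn2/Syn1). Uncalled fold changes that changed sign were Snap47 0.0058, Syn1 0.105, Syt11 0.0747, Syp 0.0200 and Syngr1 0.165 (pan-neuronal), Sv2a 0.0230, Syt1 -0.0445, Syt9 -0.0154 and Syn2 -0.103 (without Control 2 and 6), Syn2 -0.0036 (RLE), -0.00014 (upper quartile) and -0.0037 (DESeq2), and Syngr1 0.0346 (voom), 0.0333 (replicate block), 0.0035 (no filter) and 0.0519 (oligodendrocyte). With a library left out they ranged from -0.0689 to 0.0071 (Snap47), -0.299 to 0.0175 (Sv2c), -0.117 to 0.0174 (Syn1), -0.0540 to 0.0644 (Syn2), -0.119 to 0.0823 (Syngr1) and -0.0317 to 0.110 (Syt1). The cause was not tested. Depth did not limit the abundant members, while the 6 untested members had too few counts.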
